A study of Mus musculus with 9 samples.

Results

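The comparison described here sets spinal cord from injured male mice that received LDN193189 against spinal cord from sham-operated male mice. Its members are the 6 libraries that the labels place in these groups, 3 in SNI+LDN193189 and 3 in sham, of 9 libraries in the whole series, and all genes of the deposited count table were compared. SNI is used in pain research for spared nerve injury, in which branches of the sciatic nerve are cut and one is left intact. The kinase inhibitor LDN193189 acts on BMP type I receptors, ACVR1 among them. The labels give tissue, sex, group and replicate number, but no strain, age, cord segment or side, time after injury, dose, route or vehicle. The extraction text speaks of cell lines although the tissue is given as spinal cord. The labels call the replicates biosamples and do not say that each came from a separate animal, so p-values measure the spread between these samples. Both the injury and the compound separate the groups, and no library with injury alone was used, so what the injury and the compound did cannot be told apart.

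Bone morphogenetic proteins bind pairs of type I and type II receptor kinases at the cell surface. The type I receptor phosphorylates SMAD1, SMAD5 and SMAD9, which join SMAD4, enter the nucleus and induce genes such as those of the ID family. In the spinal cord the pathway is known for patterning the dorsal neural tube in development and for its part in the formation of glia. The series title ties ACVR1 to glycolysis, histone lactylation and neuronal pyroptosis, and lists for these subjects were read beside lists for pain, inflammation, time of day and cell types. The data are RNA levels of whole cord and measure neither kinase activity nor protein.

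Levels are given in CPM, read counts scaled to a common library total after TMM normalisation, and the values of 3 libraries are given in the order of replicates 1, 2 and 3. Fold changes are log2 values of SNI+LDN193189 over sham from edgeR, with their standard error (SE). A gene passed, and is called or said to rise or fall, where its Benjamini-Hochberg adjusted p is under 0.05, and higher and lower otherwise give only the sign of a difference. The 6 libraries held 33911533 to 36854001 counts each, and 21939 to 22457 of the 40879 gene symbols had a count in a library. Of these symbols 17772 passed the filter on low counts and were tested, and 15277 were listed at 0 in all 6 libraries. The symbols at 0 include Aldoa and Timp3, which many cells express, so a listed 0 is not read as absence.

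Columns of the count table carry a letter and a number, of which L was taken to begin LDN193189 and S to begin sham, although S could also begin SNI. Several libraries stood apart from the rest. Markers of neurons and central myelin had similar sums in all 6: the summed level of 15 neuronal genes was 10914 to 12740 CPM in sham and 11928 to 12826 CPM in SNI+LDN193189. That of 18 oligodendrocyte and central myelin genes was 27760 to 30065 CPM and 29306 to 31860 CPM. Sham replicate 3 held the most nerve root, fibroblast and neutrophil RNA. Pmp2, a lipid carrier of Schwann cells, stood at 5.90, 20.1 and 57.4 CPM in sham and 13.5, 11.0 and 6.14 CPM in SNI+LDN193189, and the ligand gene Dhh at 5.10, 12.9 and 38.2 CPM in sham and 11.5, 5.20 and 4.65 CPM in SNI+LDN193189. Dcn, a gene of fibroblasts, stood at 44.7, 103 and 206 CPM in sham and 70.2, 49.8 and 48.6 CPM in SNI+LDN193189, highest in the same library. The summed level of 14 leukocyte genes was 442 CPM in sham replicate 3 and 25.7 to 36.1 CPM in the other 5 libraries. Sham replicate 1 held skeletal muscle RNA, with the muscle actin Acta1 at 223 CPM against 0.690 to 4.17 CPM elsewhere, and sham replicate 2 held the sensory neuron channel Scn10a at 11.8 CPM against 0.0598 to 0.966 CPM elsewhere.

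SNI+LDN193189 replicate 3 differed from the other members of its group. Hox genes keep in the adult a record of position along the body axis, Hoxd10, Hoxd11 and Hoxa11 marking lumbar and more caudal cord and Hoxc8 more rostral cord. Hoxd10 was 6.85 CPM in that library and 39.2 to 57.9 CPM in the other 5, Hoxd11 was 1.58 against 10.4 to 18.7 CPM, and Hoxa11 was 0.545 against 4.10 to 6.79 CPM. Hoxc8 was 67.0 CPM there, the highest of the 6, against 30.2 to 51.4 CPM. These Hox genes were chosen after their values were seen. Sprr1a and Atf3, which neurons switch on when their axon is cut, were lowest there within the group, while other genes of the same list, such as Vip and Nts, chosen after their values were seen, were highest there. Sprr1a, a cornified envelope gene known from regenerating neurons, stood at 0.161, 0.235 and 0.215 CPM in sham and 6.38, 17.5 and 0.688 CPM in SNI+LDN193189. All columns read as sham thus held it at a level near 0. The stress transcription factor Atf3 stood at 1.34, 1.18 and 3.06 CPM in sham and 5.64, 9.81 and 1.15 CPM in SNI+LDN193189, so that replicate 3 lay just below the lowest sham library. Whether the cord segment or the extent of injury differed in this library was not tested. Values without it are given for the genes that passed, for some genes in which it stood apart and for some list counts.

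**Figure D1:**
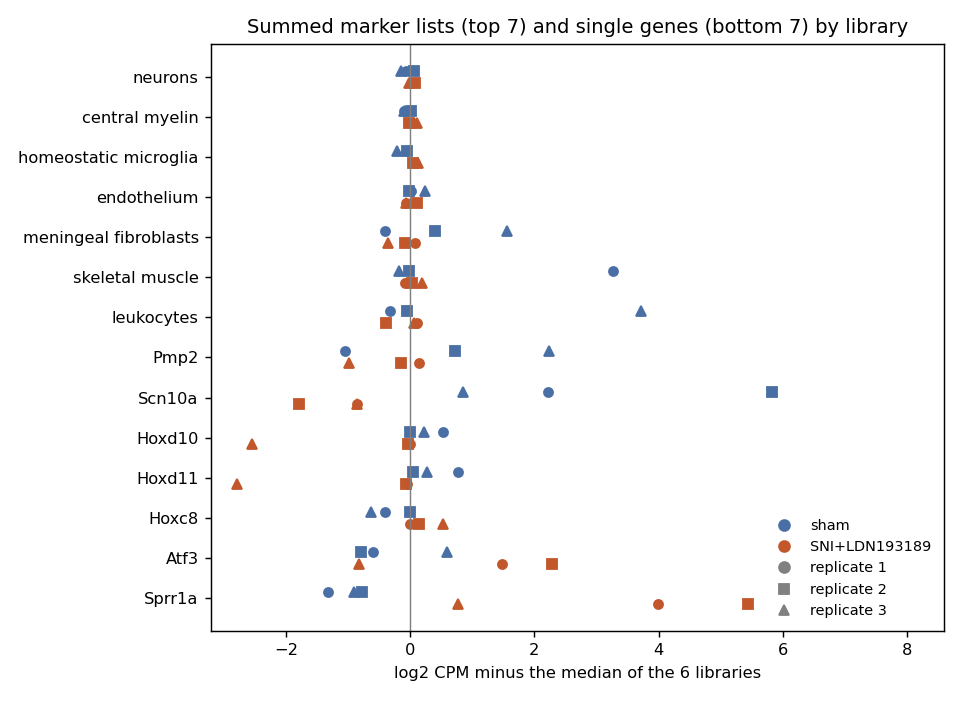
Level of marker lists (summed CPM, top 7 lines) and of single genes (bottom 7 lines) in each library, as log2 CPM minus the median of the 6 libraries. Blue is sham and orange SNI+LDN193189, and the symbol gives the replicate. Neuronal, myelin and microglial sums lie close to 0 on this wide axis. The microglial sum was still 276 to 307 CPM in sham and 330 to 346 CPM in SNI+LDN193189. Sham replicate 3 leads in leukocytes and Pmp2, sham replicate 1 in muscle and sham replicate 2 in Scn10a. SNI+LDN193189 replicate 3 is lowest in Hoxd10 and Hoxd11.

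The sham libraries were the more varied group. The standard deviation of log2 CPM was larger in sham than in SNI+LDN193189 for 11223 of the 17772 genes tested (63.1%), with a median of 0.128 against 0.10. Pearson correlations of log2 CPM across genes, which are not independent replicates, were 0.9845 to 0.9908 between sham libraries, 0.9944 to 0.9945 between SNI+LDN193189 libraries and 0.9874 to 0.9943 between the groups. The first principal component (34.9% of variance) was led by sham replicate 3 and the second (27.7%) by sham replicate 1.

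Which genes differ between the treated injured cord and the sham cord is the question of the comparison, and 3 genes passed. Mmp14 and Bmal1 fell and Per2 rose. Mmp14 encodes a membrane-bound matrix metalloproteinase that cleaves collagen and activates the secreted protease MMP2. Bmal1 encodes the DNA-binding activator of the circadian clock and Per2 one of its repressors. The 3 genes are 0.0169% of those tested, with 1 higher (0.00563%) and 2 lower (0.0113%).

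Mmp14 lies on chromosome 14 at 54431612 to 54445364 on the plus strand of GRCm38 (GENCODE M21). Its level was 35.9, 43.1 and 38.7 CPM in sham and 21.1, 16.8 and 18.5 CPM in SNI+LDN193189. Every SNI+LDN193189 library lay below every sham library. The log2 fold change was -1.06 (SE 0.0995) and the adjusted p was 0.00129 with edgeR. Bmal1, annotated as Arntl on chromosome 7 at 113207465 to 113314126 on the plus strand, stood at 29.1, 28.6 and 24.0 CPM in sham and 15.9, 14.6 and 15.4 CPM in SNI+LDN193189. The groups did not overlap, and the SNI+LDN193189 libraries lay closer together than the sham libraries. The log2 fold change was -0.83 (SE 0.0971) and the adjusted p was 0.00831 with edgeR. Per2, on chromosome 1 at 91415982 to 91459324 on the minus strand, stood at 18.6, 15.7 and 17.0 CPM in sham and 26.8, 28.1 and 31.9 CPM in SNI+LDN193189, again with no overlap. The log2 fold change was 0.76 (SE 0.0977) and the adjusted p was 0.0161 with edgeR.

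Mmp14 passed in 15 of 16 other fits and Bmal1 in 12, while Per2 passed in 9. Without SNI+LDN193189 replicate 3 the adjusted p was 0.0145 for Mmp14, 0.0614 for Bmal1 and 0.129 for Per2, with log2 fold changes of -1.05, -0.83 and 0.68. Bmal1 and Per2 also missed the threshold without sham replicate 2 (both 0.116) and without SNI+LDN193189 replicate 2 (both 0.109). Over the other fits the adjusted p ran from 3.19e-17 to 0.152 for Mmp14, from 3.37e-09 to 0.446 for Bmal1 and from 1.22e-07 to 0.431 for Per2. The directions held in all 16.

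**Figure D2:**
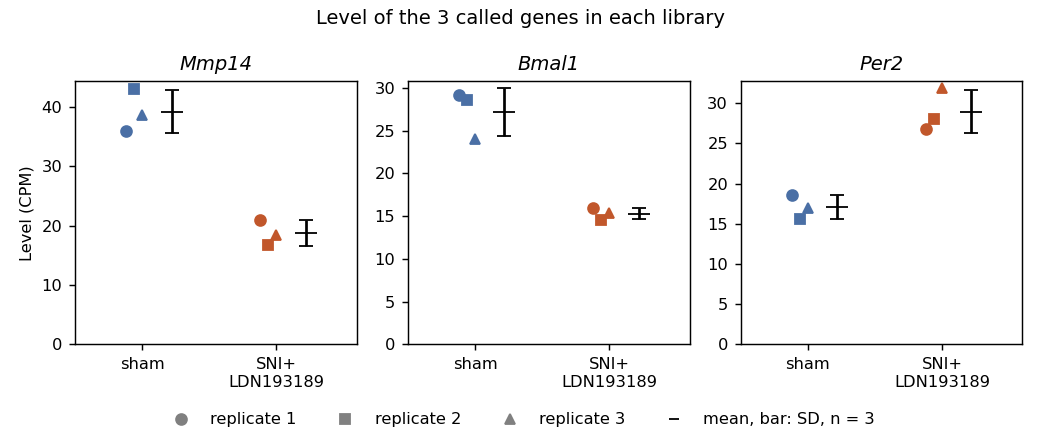
Level in CPM of the 3 genes that passed, in each library, with the axis from 0. Symbols give the replicate, the horizontal mark the mean and the bar the SD (n = 3 per group). Mmp14 and Bmal1 sit lower and Per2 higher in all SNI+LDN193189 libraries than in any sham library.

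Beyond these calls, 1302 genes (7.33% of those tested) had an unadjusted p under 0.05, 618 of them higher (3.48%) and 684 lower (3.85%). The groups did not overlap for 2315 genes (13%), 1216 of them higher (6.84%) and 1099 lower (6.18%). By sign, 8615 of the genes tested were higher (48.5%) and 9157 lower. DESeq2 called 75 genes, 34 higher and 41 lower, on the same counts. All 3 genes above were among them. Counts of list members below are to be read against these shares, and members with an unadjusted p under 0.05 did not pass the test unless they are said to.

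**Figure D3:**
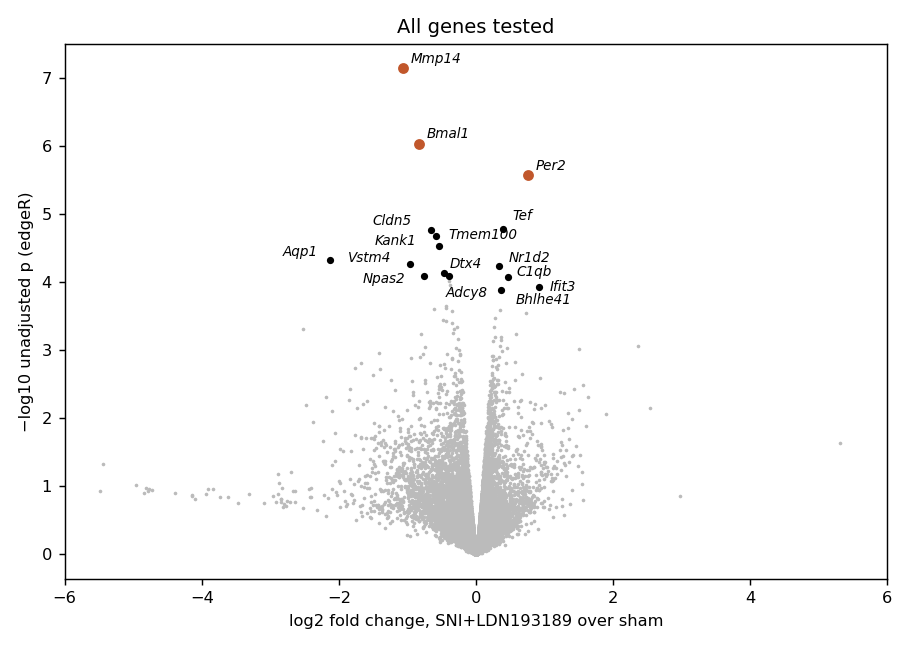
Each point is 1 of the 17772 genes tested, placed by its log2 fold change (SNI+LDN193189 over sham) and by the -log10 of its unadjusted edgeR p. Orange points are the 3 genes that passed, and black points are the next 5 higher and the next 8 lower in order of p, leaving out predicted genes and those under 1 CPM in both groups. Of the black points, Tef, Nr1d2, Npas2 and Bhlhe41 are clock genes.

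Of the 10 genes with the smallest p in each direction, 5 of those higher and 2 of those lower are genes of the circadian clock. In the clock, BMAL1 pairs with CLOCK or NPAS2, binds E-box sequences and activates the Per and Cry genes, whose proteins then block it. The same pair drives the nuclear receptors NR1D1 and NR1D2, which repress Bmal1, Npas2 and Nfil3 through ROR elements, and the output factors DBP, TEF and HLF, which compete with NFIL3 at D-box sequences. Of 19 clock genes 18 were tested, Ciart being listed at 0, and all 18 are described, a choice made after their values were seen. Of the 18, 11 were higher and 4 lower with an unadjusted p under 0.05, and the same 15 did not overlap between the groups. The median log2 fold change was 0.32, against -0.01 over all genes tested. Leaving out 1 library at a time left 8 to 11 higher and 3 to 4 lower.

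Sequence upstream of the clock genes shows where the motifs of this loop stand. The 250 bases before each start site in RefSeq promoters (GRCm38.p6) were searched on both strands. The motifs were the E-box CACGTG, the D-box as TTATGTAA or TTACGTAA and AGGTCA as the core of ROR and NR1D elements. Promoters of 17 of the 19 clock genes were matched, some with several starts, and Per2 and Bhlhe40 were not. At 1 start or more, the E-box stood in 5 of the 17 genes, Per1, Cry1, Tef, Bhlhe41 and Ciart, and in 6.02% of all 32851 promoters. The D-box stood in 1, Per3, with 2 copies, and in 0.931% of all promoters. AGGTCA stood in 4, Clock, Per1, Nr1d2 and Nfil3, and in 14% of all. The clock counts are of genes, with a match at any of their starts, while the shares are of single promoters. They are thus not on the same basis, and no share by gene was computed. No match of one motif overlapped one of another. A match describes these letters and is not a bound site, and the lack of one says only that the letters are not in this window.

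The first windows show the E-box, in capitals, in 4 genes that stood higher in SNI+LDN193189. They lie at chr11:69098756-69098815 (plus strand) for Per1, chr15:81811249-81811308 (plus) for Tef, chr6:145865561-145865620 (minus) for Bhlhe41 and chr10:85185082-85185141 (minus) for Cry1.
Per1: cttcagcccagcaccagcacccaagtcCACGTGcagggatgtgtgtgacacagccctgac
Tef: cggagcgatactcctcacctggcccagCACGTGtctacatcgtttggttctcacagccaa
Bhlhe41: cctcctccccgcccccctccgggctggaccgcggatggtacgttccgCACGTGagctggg
Cry1: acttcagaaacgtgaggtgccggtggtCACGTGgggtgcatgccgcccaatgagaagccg

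The next windows show the D-box in Per3, at chr4:151044814-151044873 (minus), with both copies in capitals, and AGGTCA, or its reverse complement TGACCT, in Nr1d2 at chr14:18239151-18239210 (minus) and in Nfil3 at chr13:52981040-52981069 (minus). Nr1d2 stood higher and Nfil3 lower.
Per3: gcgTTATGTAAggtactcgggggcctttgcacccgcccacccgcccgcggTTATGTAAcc
Nr1d2: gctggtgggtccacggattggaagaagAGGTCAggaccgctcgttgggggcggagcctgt
Nfil3: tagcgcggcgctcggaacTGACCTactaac

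The genes that fell held none of the motifs in the 250 bases searched, which are shown whole for Bmal1 at chr7:113207215-113207464 (plus) and for Mmp14 at chr14:54431348-54431597 (plus).
Bmal1: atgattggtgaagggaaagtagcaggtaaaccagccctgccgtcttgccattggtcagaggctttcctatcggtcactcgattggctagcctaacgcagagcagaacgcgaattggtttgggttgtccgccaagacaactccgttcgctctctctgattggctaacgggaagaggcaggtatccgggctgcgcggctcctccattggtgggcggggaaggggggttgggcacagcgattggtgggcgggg
Mmp14: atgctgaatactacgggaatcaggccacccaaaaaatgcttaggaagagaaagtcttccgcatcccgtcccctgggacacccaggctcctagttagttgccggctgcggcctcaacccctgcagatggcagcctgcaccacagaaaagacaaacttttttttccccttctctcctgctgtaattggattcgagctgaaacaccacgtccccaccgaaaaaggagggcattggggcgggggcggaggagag

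The activators Bmal1, Npas2 and Clock, and the output repressor Nfil3, stood lower in SNI+LDN193189. Npas2, the neuronal partner of BMAL1, was at 15.1, 15.1 and 11.4 CPM in sham and 8.77, 7.87 and 7.83 CPM in SNI+LDN193189, with no overlap (log2 fold change -0.76, SE 0.136, adjusted p = 0.108). Clock stood at 136, 126 and 118 CPM in sham and 111, 107 and 116 CPM in SNI+LDN193189 (log2 fold change -0.19, SE 0.0635, adjusted p = 0.595). Nfil3, the repressor at D-box sequences, was at 10.7, 8.70 and 8.16 CPM in sham and 6.84, 6.34 and 6.08 CPM in SNI+LDN193189 (log2 fold change -0.52, SE 0.145, adjusted p = 0.494). All 4 genes thus had their 3 SNI+LDN193189 values below their 3 sham values. On the FPKM scale, which allows for gene length, Clock was the most abundant of the activators at 12.6 in sham and 10.9 in SNI+LDN193189, against 3.28 and 1.91 for Npas2 and 1.41 and 0.786 for Bmal1.

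The Per and Cry repressors and the output factors stood higher. Per1, which also responds to neural activity and glucocorticoids, was at 23.6, 34.4 and 33.0 CPM in sham and 42.9, 49.3 and 52.1 CPM in SNI+LDN193189 (log2 fold change 0.67, SE 0.147, adjusted p = 0.477). Per3 was at 45.3, 32.8 and 51.7 CPM in sham and 55.8, 70.3 and 67.5 CPM in SNI+LDN193189 (log2 fold change 0.58, SE 0.193, adjusted p = 0.657). Cry1 was at 21.3, 20.3 and 16.6 CPM in sham and 23.6, 25.4 and 24.4 CPM in SNI+LDN193189 (log2 fold change 0.33, SE 0.101, adjusted p = 0.526), and Cry2 differed less, at 41.4, 42.1 and 42.0 CPM in sham and 43.4, 50.1 and 49.8 CPM in SNI+LDN193189 (log2 fold change 0.19, SE 0.0727, adjusted p = 0.642). In all of these the groups did not overlap, and for Per3 the lowest treated library lay just above the highest sham library. Dbp had the largest fold of the list, at 14.5, 14.5 and 24.2 CPM in sham and 40.6, 47.6 and 36.3 CPM in SNI+LDN193189 (log2 fold change 1.22, SE 0.249, adjusted p = 0.494). Sham replicate 3 held the highest sham level of Dbp, and without that library Dbp passed (adjusted p = 0.000188). Tef was at 199, 200.0 and 189 CPM in sham and 241, 262 and 270.5 CPM in SNI+LDN193189 (log2 fold change 0.40, SE 0.0604, adjusted p = 0.0622) and Hlf at 77.0, 79.6 and 84.3 CPM in sham and 91.4, 108 and 108 CPM in SNI+LDN193189 (log2 fold change 0.35, SE 0.0711, adjusted p = 0.195), each a factor of the same family as Dbp. By FPKM, Tef was the most abundant of the 3 output factors at 28.2 in sham and 36.7 in SNI+LDN193189, Hlf stood at 13.5 and 17.0, and Dbp at 6.56 and 15.1.

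Among the feedback repressors, Nr1d2 was at 164, 161 and 179.8 CPM in sham and 209, 215 and 214 CPM in SNI+LDN193189 (log2 fold change 0.34, SE 0.0586, adjusted p = 0.102), with treated values within a narrow range. Its partner Nr1d1 was at 35.2, 36.0 and 46.5 CPM in sham and 55.4, 53.5 and 35.6 CPM in SNI+LDN193189, where SNI+LDN193189 replicate 3 lay among the sham libraries and the groups overlapped (log2 fold change 0.30, SE 0.213, adjusted p = 0.792). Without that library the log2 fold change of Nr1d1 was 0.47 (adjusted p = 0.866). Bhlhe41, an E-box competitor, was at 77.5, 85.4 and 78.0 CPM in sham and 94.4, 105 and 110.1 CPM in SNI+LDN193189 (log2 fold change 0.36, SE 0.0679, adjusted p = 0.122) and Bhlhe40 at 55.6, 57.0 and 58.4 CPM in sham and 61.4, 72.1 and 59.4 CPM in SNI+LDN193189 (log2 fold change 0.17, SE 0.0746, adjusted p = 0.679). The activating receptors Rora and Rorb overlapped between the groups, with log2 fold changes of -0.01 and 0.04. DESeq2 called 10 of the 18 clock genes, Bmal1 and Per2 among them. The hour at which tissue was taken is not in the labels, and its part in these values was not tested.

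**Figure D4:**
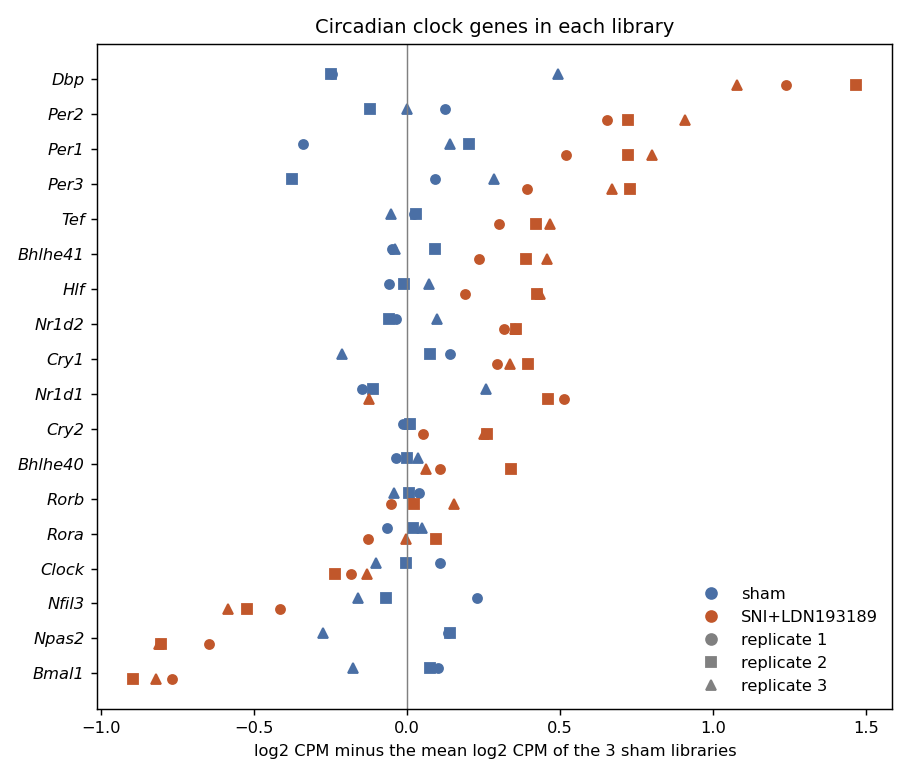
Clock genes ordered by fold change, each library as log2 CPM minus the mean of the 3 sham libraries, so that 0 is the sham mean. Blue is sham and orange SNI+LDN193189, with the symbol giving the replicate. Orange points lie to the right for the Per, Cry and output genes and to the left for Bmal1, Npas2, Nfil3 and Clock, and Nr1d1 has its replicate 3 among the sham points.

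Glucocorticoid response genes, which the stress hormone receptor induces in most cells, stood highest in SNI+LDN193189 replicate 3, with a summed level of 1775 CPM against 830 to 1247 CPM in the other 5 libraries. Of 18 tested, 4 were higher and 0 lower with an unadjusted p under 0.05, and the median log2 fold change was 0.35. Tsc22d3, the glucocorticoid-induced leucine zipper, was at 152, 179 and 156 CPM in sham and 186, 195 and 226 CPM in SNI+LDN193189 (log2 fold change 0.32, SE 0.0828, adjusted p = 0.485). Fkbp5, a chaperone that dampens the receptor, was at 30.7, 34.2 and 28.3 CPM in sham and 32.8, 38.7 and 50.3 CPM in SNI+LDN193189 (log2 fold change 0.39, SE 0.158, adjusted p = 0.679), and Nfkbia, the NF-kappaB inhibitor, at 14.0, 20.2 and 18.4 CPM in sham and 22.7, 20.4 and 32.2 CPM in SNI+LDN193189 (log2 fold change 0.52, SE 0.211, adjusted p = 0.679). In each of these replicate 3 of the treated group was the highest of the 6 libraries. Sgk1, a kinase gene of the list chosen after its values were seen, showed the widest range, at 43.2, 143 and 58.0 CPM in sham and 128, 193 and 393 CPM in SNI+LDN193189. Its log2 fold change was 1.55, and 0.98 without SNI+LDN193189 replicate 3. The count of 4 was 2 without SNI+LDN193189 replicate 3, without sham replicate 1 and without sham replicate 3, and 7 without sham replicate 2. Per1 belongs to this list as well as to the clock list.

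Matrix metalloproteinases cut the extracellular matrix and TIMPs inhibit them. Of 13 such genes tested, 0 were higher and 2 lower with an unadjusted p under 0.05, Mmp14 and Mmp11, and the median log2 fold change was -0.20. Mmp11, a secreted protease, was low at 2.31, 2.76 and 4.08 CPM in sham and 2.07, 1.50 and 2.24 CPM in SNI+LDN193189 (log2 fold change -0.66, SE 0.268, adjusted p = 0.657). Mmp2, which MMP14 activates, stood at 6.49, 7.55 and 10.1 CPM in sham and 7.19, 6.55 and 5.71 CPM in SNI+LDN193189 and overlapped between the groups (log2 fold change -0.32, SE 0.176, adjusted p = 0.730). Timp2, the inhibitor that bridges MMP14 and pro-MMP2, stood at 445, 519 and 478 CPM in sham and 467, 473 and 475 CPM in SNI+LDN193189 (log2 fold change -0.03, SE 0.0647, adjusted p = 0.936). Mmp15, the membrane-type enzyme closest to Mmp14 in level, was 13.6 FPKM in sham and 11.7 FPKM in SNI+LDN193189, where Mmp14 went from 10.4 ± 0.788 to 4.93 ± 0.591 (SD, n = 3). Mmp15 and Timp2 were chosen after their values were seen. Timp1, Timp3 and Timp4 were listed at 0. The count of 2 lower was 5 without sham replicate 1 and 1 without sham replicate 3 and without SNI+LDN193189 replicate 2.

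Matrix genes give connective tissue its fibres and basement membranes. Of 22 tested, 0 were higher and 3 lower with an unadjusted p under 0.05, 20 had a negative log2 fold change and the median was -0.66. The microfibrillar collagen genes Col6a1 and Col6a2 were at 15.6, 17.2 and 22.0 CPM in sham and 11.8, 14.8 and 12.4 CPM in SNI+LDN193189 (log2 fold change -0.49, SE 0.138, adjusted p = 0.494) and at 8.10, 10.6 and 16.8 CPM in sham and 7.48, 8.58 and 7.46 CPM in SNI+LDN193189 (log2 fold change -0.59, SE 0.251, adjusted p = 0.679). Col12a1, a collagen that coats fibrils, was at 26.7, 23.5 and 34.7 CPM in sham and 22.4, 18.1 and 18.3 CPM in SNI+LDN193189 (log2 fold change -0.53, SE 0.148, adjusted p = 0.526). The basement membrane collagen Col4a1 was at 30.9, 32.8 and 65.2 CPM in sham and 25.9, 17.6 and 15.5 CPM in SNI+LDN193189 (log2 fold change -1.13, SE 0.418, adjusted p = 0.679). In all 4 sham replicate 3 was the highest library, and the summed level of 15 meningeal fibroblast genes was 261, 457 and 1010 CPM in sham and 270 to 365 CPM in SNI+LDN193189. The part of fibroblast and nerve root RNA in the matrix values and in those of Mmp14 was not tested. Over the 16 other fits, the log2 fold change of Mmp14 ran from -1.15 to -0.99 and that of Col4a1 from -1.38 to -0.64. The range was -0.59 to -0.33 for Col6a1, -0.81 to -0.21 for Col6a2 and -0.65 to -0.36 for Col12a1. The count of 3 lower was 2 without SNI+LDN193189 replicate 1 or 3, 4 without sham replicate 3 and 5 without sham replicate 1.

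Endothelial genes line the vessels and form the barrier between blood and cord. Of 16 tested, 1 was higher and 4 lower with an unadjusted p under 0.05, and the median log2 fold change was -0.18. In whole tissue, fewer cells of a type and less RNA per cell cannot be told apart. Cldn5, the tight junction claudin of the barrier on chromosome 16 at 18776847 to 18778262, was at 33.1, 31.0 and 39.8 CPM in sham and 22.6, 23.0 and 20.0 CPM in SNI+LDN193189 (log2 fold change -0.66, SE 0.102, adjusted p = 0.0622). Kdr, the main VEGF receptor, was at 29.5, 21.7 and 29.3 CPM in sham and 19.7, 15.3 and 13.1 CPM in SNI+LDN193189 (log2 fold change -0.74, SE 0.175, adjusted p = 0.485), and Esam, an adhesion molecule of endothelial junctions, at 15.9, 15.1 and 19.4 CPM in sham and 14.0, 14.5 and 12.4 CPM in SNI+LDN193189 (log2 fold change -0.30, SE 0.118, adjusted p = 0.653). These 3 did not overlap between the groups. Flt1, the VEGF decoy receptor, overlapped at 105, 97.9 and 104 CPM in sham and 92.3, 98.6 and 86.1 CPM in SNI+LDN193189 (log2 fold change -0.15, SE 0.0627, adjusted p = 0.678). The barrier transporter Slco1a4 went the other way, at 115, 96.2 and 121 CPM in sham and 117, 136 and 129 CPM in SNI+LDN193189 (log2 fold change 0.20, SE 0.0866, adjusted p = 0.679). The summed level of the list was 635 to 760 CPM in sham and 614 to 698 CPM in SNI+LDN193189. The 4 lower were 2 without sham replicate 3 and without SNI+LDN193189 replicate 3, and the 1 higher was 0 without sham replicate 1 and without SNI+LDN193189 replicates 2 or 3. DESeq2 called Cldn5 and Kdr lower, with adjusted p-values of 1.51e-05 and 0.00139.

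Other genes among the smallest p-values belong to no list above and did not pass. On the lower side, Kank1, a regulator of actin at adhesion sites, was at 44.8, 51.0 and 45.9 CPM in sham and 34.9, 27.7 and 32.2 CPM in SNI+LDN193189 (log2 fold change -0.58, SE 0.0902, adjusted p = 0.0631). Tmem100, a membrane protein induced by BMP signalling in endothelium and also found in sensory neurons, was at 24.7, 24.8 and 25.1 CPM in sham and 17.0, 16.1 and 18.4 CPM in SNI+LDN193189 (log2 fold change -0.54, SE 0.0868, adjusted p = 0.0763), with an SD of 0.216 CPM in sham. Vstm4, a membrane protein, was at 24.0, 30.1 and 31.2 CPM in sham and 16.8, 11.7 and 15.1 CPM in SNI+LDN193189 (log2 fold change -0.97, SE 0.144, adjusted p = 0.102). The groups did not overlap in any of these. Aqp1, the water channel of choroid plexus and of small sensory fibres, was at 5.31, 3.47 and 2.68 CPM in sham and 0.518, 1.23 and 0.860 CPM in SNI+LDN193189 (log2 fold change -2.14, SE 0.346, adjusted p = 0.102), a level low enough that single libraries weigh on it. Adcy8, a calcium-stimulated adenylyl cyclase, was at 65.6, 58.1 and 57.4 CPM in sham and 47.3, 44.6 and 46.6 CPM in SNI+LDN193189 (log2 fold change -0.39, SE 0.0692, adjusted p = 0.108), and Dtx4, a Notch pathway ubiquitin ligase, at 56.0, 53.3 and 55.8 CPM in sham and 45.4, 37.1 and 37.2 CPM in SNI+LDN193189 (log2 fold change -0.46, SE 0.0821, adjusted p = 0.108). On the higher side, Slco4a1, an organic anion transporter, was at 5.69, 4.82 and 5.58 CPM in sham and 7.74, 9.90 and 9.12 CPM in SNI+LDN193189 (log2 fold change 0.73, SE 0.150, adjusted p = 0.203). Slc25a33, a mitochondrial pyrimidine carrier, was at 49.4, 50.3 and 49.8 CPM in sham and 59.4, 60.2 and 62.1 CPM in SNI+LDN193189 (log2 fold change 0.28, SE 0.0587, adjusted p = 0.233). Tubb2b, a neuronal tubulin with a near-identical copy in Tubb2a, was at 89.6, 98.3 and 92.7 CPM in sham and 112, 110.4 and 114 CPM in SNI+LDN193189 (log2 fold change 0.26, SE 0.0565, adjusted p = 0.260). All genes of this paragraph lay apart between the groups, which adds little, since they were chosen by their small p on the same values.

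Genes of the type I receptors that LDN193189 inhibits, Acvr1, Bmpr1a and Bmpr1b, had log2 fold changes from -0.24 to 0.10. Of 21 BMP and activin receptor and SMAD genes tested, 2 were higher and 2 lower with an unadjusted p under 0.05, and the median log2 fold change was 0.03. Acvr1, the receptor of the series title, stood at 30.3, 26.9 and 25.8 CPM in sham and 32.5, 28.8 and 27.5 CPM in SNI+LDN193189, overlapping between the groups (log2 fold change 0.10, SE 0.0917, adjusted p = 0.819). Bmpr1a was at 88.5, 93.9 and 97.1 CPM in sham and 97.3, 97.4 and 100.2 CPM in SNI+LDN193189 (log2 fold change 0.08, SE 0.0565, adjusted p = 0.781) and the type II receptor Bmpr2 at 287, 305 and 271 CPM in sham and 298, 311 and 302 CPM in SNI+LDN193189 (log2 fold change 0.08, SE 0.0601, adjusted p = 0.791). By FPKM, Bmpr2 was the most abundant of these at 24.5 in sham and 25.6 in SNI+LDN193189, Bmpr1a stood at 15.5 and 16.1, and Acvr1 at 7.34 and 7.77. Bmpr1b was lower without overlap, at 44.0, 46.3 and 39.9 CPM in sham and 38.0, 35.5 and 36.8 CPM in SNI+LDN193189 (log2 fold change -0.24, SE 0.0749, adjusted p = 0.526). Rgma, a BMP co-receptor also known as a repulsive guidance cue, was at 51.0, 47.4 and 44.0 CPM in sham and 57.3, 54.7 and 57.0 CPM in SNI+LDN193189 (log2 fold change 0.25, SE 0.0689, adjusted p = 0.487). Tgfbr1, the TGF-beta type I receptor, was at 40.2, 38.5 and 36.7 CPM in sham and 42.1, 45.7 and 45.8 CPM in SNI+LDN193189 (log2 fold change 0.21, SE 0.0709, adjusted p = 0.590), and the activin receptor Acvr2b at 27.1, 24.1 and 27.3 CPM in sham and 22.2, 24.2 and 21.7 CPM in SNI+LDN193189 (log2 fold change -0.21, SE 0.0875, adjusted p = 0.678). The 2 lower were 1 without either SNI+LDN193189 replicate 1 or 3, and the 2 higher were 3 at most.

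BMP-SMAD target genes, the usual readout of the pathway, had 1 member higher and 1 lower among 16 tested with an unadjusted p under 0.05, and a median log2 fold change of 0.13. Id2, a dominant negative partner of helix-loop-helix factors, was at 89.8, 112 and 86.1 CPM in sham and 75.7, 68.0 and 80.3 CPM in SNI+LDN193189 (log2 fold change -0.36, SE 0.107, adjusted p = 0.565). Smad7, an inhibitor of the pathway that is induced by it, was at 21.3, 19.4 and 21.5 CPM in sham and 23.3, 22.9 and 29.2 CPM in SNI+LDN193189 (log2 fold change 0.28, SE 0.104, adjusted p = 0.642). Id2 thus stood below and Smad7 above the sham range in every treated library. Id1, the target most used as a readout, was at 8.56, 8.29 and 10.7 CPM in sham and 10.9, 10.3 and 10.0 CPM in SNI+LDN193189 (log2 fold change 0.18, SE 0.133, adjusted p = 0.783). Id3 was at 20.7, 22.8 and 27.1 CPM in sham and 23.8, 24.0 and 22.8 CPM in SNI+LDN193189 (log2 fold change 0.00, SE 0.101, adjusted p = 0.997) and Smad6, another induced inhibitor, at 2.04, 1.70 and 2.04 CPM in sham and 2.70, 2.39 and 1.32 CPM in SNI+LDN193189 (log2 fold change 0.15, SE 0.288, adjusted p = 0.919). Id1, Id3 and Smad6 overlapped between the groups. The count higher was 3 without SNI+LDN193189 replicate 1 and 2 without sham replicate 3, and the count lower 2 without sham replicate 2. Of 23 BMP ligands and secreted antagonists tested, 0 had an unadjusted p under 0.05 and 0 lay apart between the groups, and the median was -0.00.

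Chaperones of the endoplasmic reticulum, which fold secreted and membrane proteins, stood lower in SNI+LDN193189. Of 20 heat shock and unfolded protein genes tested, 0 were higher and 8 lower with an unadjusted p under 0.05, and the median log2 fold change was -0.15. The 8, of which 7 lay apart between the groups and Creld2 overlapped, are Calr, Pdia6, Hsp90b1, Hspa5, Pdia4, Sdf2l1, Xbp1 and Creld2, all of the endoplasmic reticulum or, for Xbp1, the transcription factor that induces its chaperones. Calr, the calcium-binding chaperone calreticulin, was at 385, 389 and 404 CPM in sham and 334, 294 and 274 CPM in SNI+LDN193189 (log2 fold change -0.39, SE 0.0714, adjusted p = 0.122). Pdia6, a disulfide isomerase, was at 96.6, 94.0 and 95.6 CPM in sham and 84.9, 68.8 and 74.5 CPM in SNI+LDN193189 (log2 fold change -0.33, SE 0.0713, adjusted p = 0.266). Hsp90b1, the HSP90 of the endoplasmic reticulum, was at 522, 512 and 531 CPM in sham and 473, 426 and 403 CPM in SNI+LDN193189 (log2 fold change -0.27, SE 0.0665, adjusted p = 0.389), and Hspa5, its HSP70, which binds the sensors of the unfolded protein response, at 43.8, 43.0 and 39.5 CPM in sham and 35.1, 28.3 and 24.1 CPM in SNI+LDN193189 (log2 fold change -0.53, SE 0.123, adjusted p = 0.409). In these 4 all treated libraries lay below all sham libraries, with replicate 1 the nearest to sham. Hspa8, a cytosolic chaperone chosen after its values were seen, had a log2 fold change of -0.05 and overlapped. Leaving out 1 library at a time left 7 to 11 lower. DESeq2 called Calr, Pdia6, Hsp90b1, Hspa5 and Xbp1 lower.

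Microglial genes stood slightly higher. Of 10 homeostatic microglia genes tested, 5 were higher and 0 lower with an unadjusted p under 0.05, and the median log2 fold change was 0.22, while P2ry12, P2ry13 and Gpr34 were listed at 0. Csf1r, the receptor microglia need to survive, was at 67.3, 68.3 and 62.5 CPM in sham and 81.3, 71.8 and 79.9 CPM in SNI+LDN193189 (log2 fold change 0.23, SE 0.0652, adjusted p = 0.488). Selplg, a selectin ligand, was at 18.7, 17.8 and 17.3 CPM in sham and 20.1, 20.3 and 21.9 CPM in SNI+LDN193189 (log2 fold change 0.21, SE 0.0879, adjusted p = 0.678). Both lay apart between the groups. The fractalkine receptor Cx3cr1 overlapped, at 37.9, 40.7 and 33.3 CPM in sham and 39.0, 43.4 and 44.7 CPM in SNI+LDN193189 (log2 fold change 0.18, SE 0.0862, adjusted p = 0.679), as did the lipid receptor Trem2 at 6.60, 8.11 and 5.69 CPM in sham and 10.1, 7.33 and 9.03 CPM in SNI+LDN193189 (log2 fold change 0.38, SE 0.168, adjusted p = 0.679). Trem2 and Tmem119 were among the 5. The 5 were 2 without SNI+LDN193189 replicate 3 or sham replicate 3, and 3 without sham replicate 1. The list's summed level was 276 to 307 CPM in sham and 330 to 346 CPM in SNI+LDN193189, lowest in sham replicate 3.

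Complement proteins of the C1q complex are made in the cord mainly by microglia and tag material for removal. Of 15 complement genes tested, 4 were higher and 1 lower with an unadjusted p under 0.05, and the median was 0.05. C1qb was at 24.2, 26.5 and 23.8 CPM in sham and 35.0, 31.6 and 36.2 CPM in SNI+LDN193189 (log2 fold change 0.46, SE 0.0835, adjusted p = 0.108), C1qc at 24.0, 25.0 and 24.0 CPM in sham and 28.9, 29.3 and 32.0 CPM in SNI+LDN193189 (log2 fold change 0.31, SE 0.0792, adjusted p = 0.425) and C1qa at 27.5, 29.8 and 27.2 CPM in sham and 36.9, 31.9 and 33.8 CPM in SNI+LDN193189 (log2 fold change 0.28, SE 0.0815, adjusted p = 0.494). The genes of all 3 C1q chains were higher in every treated library than in any sham library. C1s1, a protease of the C1 complex, was lower with overlap, at 2.25, 5.08 and 6.39 CPM in sham and 2.47, 2.42 and 2.01 CPM in SNI+LDN193189 (log2 fold change -0.99, SE 0.338, adjusted p = 0.630), and C4b was the other member higher. The 1 lower was 0 without sham replicate 2 and 2 without sham replicate 1 or SNI+LDN193189 replicates 1 or 2. DESeq2 called C1qb higher (adjusted p = 0.00204).

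Interferon response genes belong to the antiviral programme of most cells. By sign 16 of 18 tested were higher and 2 lower, beside 48.5% higher over all genes tested. With an unadjusted p under 0.05, 6 were higher and 0 lower, and the median log2 fold change was 0.27. Ifit3, an antiviral protein with a near-identical copy in Ifit3b between which reads may be split, was at 15.2, 15.3 and 17.2 CPM in sham and 22.8, 32.7 and 34.4 CPM in SNI+LDN193189 (log2 fold change 0.91, SE 0.146, adjusted p = 0.122). Oasl2, of the oligoadenylate synthetase family, was at 10.4, 10.8 and 11.3 CPM in sham and 13.4, 16.2 and 18.9 CPM in SNI+LDN193189 (log2 fold change 0.58, SE 0.129, adjusted p = 0.286). Irf7, the transcription factor that amplifies the response, was at 4.08, 3.17 and 4.67 CPM in sham and 5.12, 7.72 and 9.98 CPM in SNI+LDN193189 (log2 fold change 0.93, SE 0.240, adjusted p = 0.485), and Mx1 was low at 0.268, 0.470 and 0.537 CPM in sham and 0.978, 1.56 and 0.918 CPM in SNI+LDN193189 (log2 fold change 1.43, SE 0.407, adjusted p = 0.494). Replicate 1 was the lowest of the treated group for Ifit3, Oasl2 and Irf7, and Ifit3 passed without that library (adjusted p = 0.00197). Leaving out 1 library at a time left 5 to 8 higher.

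The axotomy list was read beside the label of injury, since many of its genes are known to rise in neurons whose axon is cut. Of 18 tested, 4 were higher and 0 lower with an unadjusted p under 0.05, and the median log2 fold change was 0.11. By sign 14 were higher and 4 lower, beside 48.5% higher over all genes tested. The 4 lower by sign were Adcyap1, Cck, Jun and Bdnf, with log2 fold changes of -0.17, -0.19, -0.11 and -0.06. Of these, Adcyap1 lay below the sham range in every treated library. Sprr1a, with values given above, had a log2 fold change of 5.31 (SE 1.51, adjusted p = 0.645), and DESeq2 called it (adjusted p = 0.00249). Gal, the neuropeptide galanin, was at 3.06, 3.82 and 3.14 CPM in sham and 5.64, 5.62 and 4.01 CPM in SNI+LDN193189 (log2 fold change 0.61, SE 0.197, adjusted p = 0.555). Tubb3, a neuronal tubulin, was at 342, 422 and 349 CPM in sham and 440.4, 454 and 418 CPM in SNI+LDN193189 (log2 fold change 0.24, SE 0.0787, adjusted p = 0.587), and the orphan receptor Gpr151 at 0.483, 0.411 and 0.322 CPM in sham and 0.575, 2.03 and 0.401 CPM in SNI+LDN193189 (log2 fold change 1.30, SE 0.584, adjusted p = 0.679). SNI+LDN193189 replicate 2 was the highest of the 6 libraries for Sprr1a, Tubb3 and Gpr151. Tubb3 and Gpr151 overlapped between the groups, as did Atf3 (log2 fold change 1.57, SE 0.913, adjusted p = 0.765). Without SNI+LDN193189 replicate 3 the log2 fold change was 5.85 for Sprr1a (adjusted p = 0.129) and 2.05 for Atf3 (adjusted p = 0.977). The count of 4 higher with an unadjusted p under 0.05 was 2 without sham replicate 1 or sham replicate 3.

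Transmitter genes of the dorsal horn, where pain fibres end, stood lower by sign in 15 of 18 tested. With an unadjusted p under 0.05, 0 were higher and 2 lower, and the median log2 fold change was -0.14. Tac1, the precursor of substance P, was at 29.3, 34.9 and 32.7 CPM in sham and 22.8, 25.5 and 22.9 CPM in SNI+LDN193189 (log2 fold change -0.44, SE 0.0893, adjusted p = 0.195). Sst, the precursor of somatostatin in excitatory interneurons, was at 70.0, 71.5 and 67.5 CPM in sham and 58.5, 60.4 and 58.4 CPM in SNI+LDN193189 (log2 fold change -0.24, SE 0.0575, adjusted p = 0.385). Both were below the sham range in all 3 treated libraries. Next by p came Nmb, a neuromedin, at 2.93, 3.29 and 2.34 CPM in sham and 2.16, 1.62 and 2.24 CPM in SNI+LDN193189 (log2 fold change -0.51, SE 0.240, adjusted p = 0.679) and the mu opioid receptor Oprm1 at 88.2, 90.2 and 76.6 CPM in sham and 74.8, 79.7 and 77.7 CPM in SNI+LDN193189 (log2 fold change -0.13, SE 0.0672, adjusted p = 0.700). The 2 were 8 without sham replicate 3, whose neuronal sum was the lowest of the 6 libraries. DESeq2 called Tac1 lower (adjusted p = 0.00998).

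Of glycolysis and lactate genes, which the series title puts downstream of ACVR1, 0 passed. Of 26 tested, 2 were higher and 0 lower with an unadjusted p under 0.05, and the median log2 fold change was 0.07. Without overlap, 6 were higher (23.1%, beside 6.84% of all genes tested) and 0 lower. The summed level of the list was 8277 to 9145 CPM in sham and 9156 to 9418 CPM in SNI+LDN193189. Pdk2, a kinase that holds back pyruvate dehydrogenase, was at 70.1, 75.3 and 70.3 CPM in sham and 81.6, 82.2 and 80.7 CPM in SNI+LDN193189 (log2 fold change 0.18, SE 0.0555, adjusted p = 0.526), and Slc2a1, the glucose transporter of the barrier, at 103, 125 and 123 CPM in sham and 137, 136 and 169 CPM in SNI+LDN193189 (log2 fold change 0.33, SE 0.106, adjusted p = 0.609). Both lay above the sham range. Ldha, which makes lactate from pyruvate, pointed down with overlap at 91.1, 81.1 and 79.3 CPM in sham and 84.1, 66.4 and 70.3 CPM in SNI+LDN193189 (log2 fold change -0.19, SE 0.0903, adjusted p = 0.700). The pyruvate kinase Pkm was at 1274, 1377 and 1238 CPM in sham and 1351, 1440 and 1382 CPM in SNI+LDN193189 (log2 fold change 0.10, SE 0.0656, adjusted p = 0.757), the hexokinase Hk2 at 7.25, 4.35 and 4.62 CPM in sham and 6.21, 4.73 and 5.22 CPM in SNI+LDN193189 (log2 fold change -0.01, SE 0.208, adjusted p = 0.996) and the lactate transporter Slc16a1 at 95.9, 102 and 115 CPM in sham and 107, 99.0 and 94.1 CPM in SNI+LDN193189 (log2 fold change -0.06, SE 0.0741, adjusted p = 0.858). Eno1, the enolase, was higher without overlap at 426, 444 and 431 CPM in sham and 479, 476 and 452 CPM in SNI+LDN193189 (log2 fold change 0.11, SE 0.0567, adjusted p = 0.700). The 2 were 11 without sham replicate 2. Nuclear oxidative phosphorylation genes were higher by sign in 25 of 28, with 3 at an unadjusted p under 0.05, 12 without overlap and a median of 0.09. The 3 were Ndufb8, Sdhb and Cox4i1, subunits of complexes of the respiratory chain, with log2 fold changes of 0.13, 0.12 and 0.13. They were 13 without sham replicate 2 and 0 to 2 without any other library.

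The histone acylation list holds enzymes that add or remove acyl groups on histones, lactyl among them, and some enzymes that make acyl-CoA. It had 1 of 18 members higher and 0 lower with an unadjusted p under 0.05, and a median of -0.01. The member was Suclg2, a succinate-CoA ligase and thus of the second kind. Suclg2 was at 30.6, 30.4 and 29.9 CPM in sham and 33.1, 34.6 and 34.1 CPM in SNI+LDN193189 (log2 fold change 0.16, SE 0.0711, adjusted p = 0.679). The count was 1 without sham replicate 2 and 0 without any 1 of the other 5 libraries. Ep300, an acyltransferase reported to write lactyl marks, was at 72.7, 68.1 and 69.0 CPM in sham and 70.4, 68.6 and 68.6 CPM in SNI+LDN193189 (log2 fold change -0.01, SE 0.0565, adjusted p = 0.963). Of 13 pyroptosis genes tested, 11 were higher and 2 lower by sign, the median log2 fold change was 0.10 and 0 lay apart between the groups. With an unadjusted p under 0.05, 1 was higher and 0 lower. It was Il18, a cytokine matured by inflammasomes, at 33.8, 30.7 and 30.0 CPM in sham and 33.7, 38.6 and 37.0 CPM in SNI+LDN193189 (log2 fold change 0.21, SE 0.0809, adjusted p = 0.642). The pore-forming genes Gsdmd and Gsdme had log2 fold changes of -0.01 and 0.03 and the sensor Nlrp3 0.00, with mean levels of 2.98, 40.5 and 1.32 CPM in sham. Casp1, Casp4, Il1b and Txnip were listed at 0. The count was 2 without SNI+LDN193189 replicate 1, 1 without sham replicate 1 and 0 without any 1 of the other 4 libraries.

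**Figure D5:**
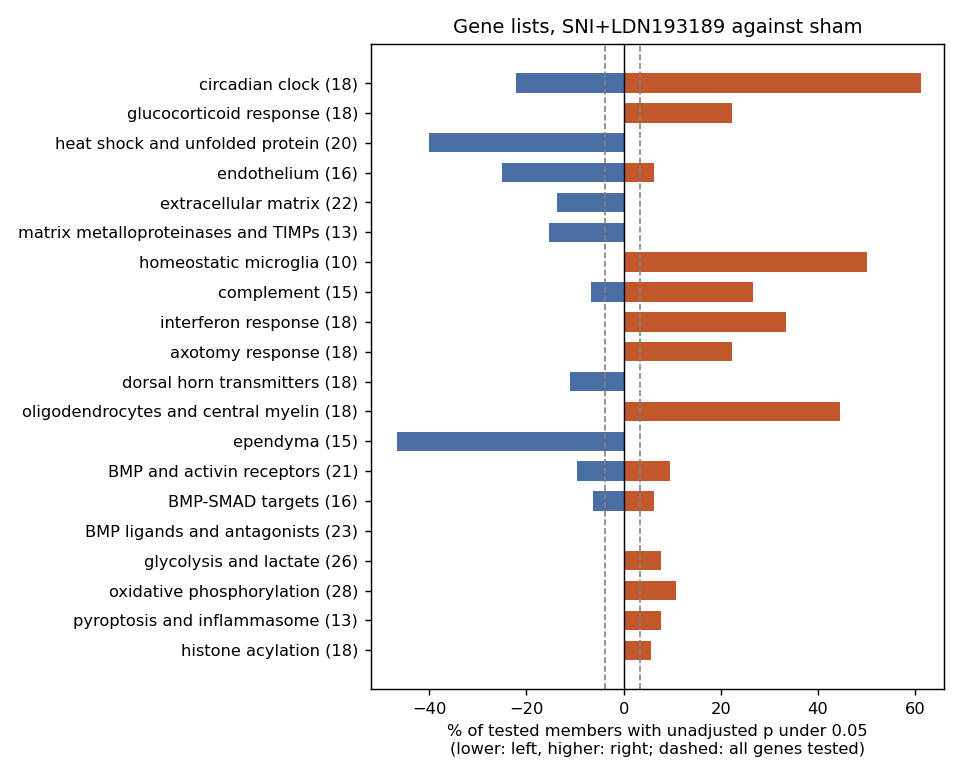
Share of the tested members of each list (number tested in brackets) with an unadjusted p under 0.05, higher in SNI+LDN193189 to the right and lower to the left, and the dashed lines the shares of all genes tested (3.48% and 3.85%). The clock list extends furthest to the right, and the ependymal and heat shock lists furthest to the left, the ependymal count being 0 without sham replicate 3 or SNI+LDN193189 replicate 3.

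The oligodendrocyte and ependymal counts fell when any 1 of several libraries was left out. Of 18 oligodendrocyte and central myelin genes tested, 8 were higher and 0 lower with an unadjusted p under 0.05, with a median log2 fold change of 0.09. Trf, the transferrin that oligodendrocytes make, was at 1279, 1277 and 1251 CPM in sham and 1522, 1400 and 1490 CPM in SNI+LDN193189 (log2 fold change 0.21, SE 0.0623, adjusted p = 0.509) and the myelin surface protein Mog at 70.2, 77.6 and 62.5 CPM in sham and 81.1, 79.8 and 88.7 CPM in SNI+LDN193189 (log2 fold change 0.25, SE 0.0771, adjusted p = 0.526), both without overlap. Opalin overlapped at 64.7, 66.2 and 69.4 CPM in sham and 70.3, 79.3 and 61.1 CPM in SNI+LDN193189 (log2 fold change 0.07, SE 0.0840, adjusted p = 0.855). The 8 were 2 without SNI+LDN193189 replicate 3, 3 without sham replicate 1 and 5 without sham replicate 3 or SNI+LDN193189 replicate 1. Of 15 genes of ependymal motile cilia tested, 0 were higher and 7 lower with an unadjusted p under 0.05, with a median of -0.37. By sign 12 were lower and 3 higher. The 3 were Meig1, Cfap126 and Foxj1, with log2 fold changes of 0.53, 0.20 and 0.00, and Meig1 did not overlap between the groups. Ak7, an adenylate kinase of cilia, was at 11.6, 10.1 and 12.2 CPM in sham and 9.55, 8.91 and 7.80 CPM in SNI+LDN193189 (log2 fold change -0.37, SE 0.131, adjusted p = 0.623) and Spag16, a protein of the ciliary core, at 3.81, 3.70 and 3.81 CPM in sham and 2.88, 2.81 and 2.64 CPM in SNI+LDN193189 (log2 fold change -0.44, SE 0.186, adjusted p = 0.674), both without overlap. The 7 were 0 without sham replicate 3 or SNI+LDN193189 replicate 3, 2 without SNI+LDN193189 replicate 2 and 3 without sham replicate 1.

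The other 22 lists held few members with an unadjusted p under 0.05, and leaving out 1 library at a time gave 0 to 8 in either direction. Among glial lists, Trem2, Axl and Ctsd were higher of 16 reactive microglia genes, the oncostatin M receptor Osmr was lower of 16 reactive astrocyte genes, Ntsr2 was higher and the gap junction gene Gja1 lower of 13 astrocyte genes, and Enpp6 was higher of 11 precursor genes. Osmr was at 11.5, 13.8 and 14.2 CPM in sham and 8.86, 8.55 and 8.49 CPM in SNI+LDN193189 (log2 fold change -0.61, SE 0.122, adjusted p = 0.195), without overlap, and DESeq2 called it (adjusted p = 0.0116). Among neuronal lists, Uchl1 and Tubb3 were higher of 15 neuronal genes, and Chat, the acetylcholine enzyme of motor neurons, and Ache were higher of 12 motor neuron genes. Of 18 inhibitory transmission genes Slc6a9 was higher and Gabra2 lower, and of 18 glutamate genes the receptor Gria1 and the scaffold Shank1 were lower. The activity genes Egr3 and Nr4a1 were lower of 17 immediate early genes.

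As in the lists just described, members named here as higher or lower had an unadjusted p under 0.05. Of 11 cytokine and chemokine genes the alarmin Il33 was higher and Tgfb1 lower, with log2 fold changes of 0.24 and -0.37. Slc2a1, Higd1a and Bnip3 were higher of 15 hypoxia targets, Mvk of 19 cholesterol genes and Pcna of 17 proliferation genes. Of lists for other tissue, 0 of 13 meningeal fibroblast, 0 of 16 Schwann cell, 0 of 14 skeletal muscle, 0 of 13 pericyte, 0 of 8 perivascular macrophage and 0 of 8 erythrocyte genes had an unadjusted p under 0.05. Their medians were -0.48, -1.14, -4.12, -0.24, -0.40 and -0.08, beside -0.01 over all genes tested. Single libraries weigh on these medians: the summed level of 14 muscle genes was 1038 CPM in sham replicate 1 and 95.0 to 123 CPM in the other 5 libraries, and the fibroblast and Schwann cell sums were highest in sham replicate 3. Scn10a and Fxyd2 were lower of 10 sensory ganglion genes, Ptprc of 9 leukocyte genes and Hoxd13 of 14 Hox genes. Ptprc, the pan-leukocyte surface phosphatase, was at 11.8, 9.29 and 13.8 CPM in sham and 8.92, 7.60 and 7.51 CPM in SNI+LDN193189 (log2 fold change -0.54, SE 0.153, adjusted p = 0.494), and the groups did not overlap.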

How the data were processed

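Strand-marked (dUTP) libraries of poly(A) RNA were sequenced as 150 bp pairs, per the labels' protocols. The authors deposited read counts per gene symbol and FPKM values for 9 libraries. The build is mm10, per the submitters' processing notes, and the aligner, the counter and whether counting used strand are not given in the sources used here. Columns were matched to samples by letter and replicate number, and the columns of the group with injury alone were not used.

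The deposited counts of the 6 libraries (33911533 to 36854001 each) were scaled by TMM, filtered with filterByExpr and tested with edgeR 4.0.16 (robust quasi-likelihood F test, 4 residual degrees of freedom, Benjamini-Hochberg adjustment over 17772 genes), in R 4.3.3. SE is the absolute log2 fold change over the square root of F. The biological coefficient of variation was 0.143 and the median SE of a log2 fold change 0.115. The deposited FPKM values served for comparing levels between genes and for 1 alternative. Alternatives were DESeq2 1.42.0, limma 3.58.1 (voom with sample weights, and log2 of FPKM plus 0.1), other scalings and filters, a replicate block, nerve root level as a covariate, a test against a log2 fold change of 0.2, and each library left out. Counts of list members under these alternatives were added after seeing the data.

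Named genes are the 10 per direction with the smallest p (mean of at least 1 CPM in a group, no predicted models), up to 4 members of each list by p, a fixed set, and genes in counts of 5 or fewer; some genes that the rule names are not reported here. The comparison and the 42 lists were chosen with earlier results of these data known. Promoters are from RefSeq (GRCm38.p6) and gene coordinates from GENCODE M21.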

Additional observations from a re-analysis of the deposited data

How the results depend on the processing

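The count of 3 genes called (1 higher, 2 lower) depended on the processing. It was 75 (34 and 41) with DESeq2, 0 (0 and 0) with limma on log2 FPKM, where 1330 genes had an unadjusted p under 0.05, 47 (17 and 30) with no filter on low counts, none of them a gene the filter removes, and 14 (2 and 12) with nerve root level as a covariate. None was called higher, that is 0, with limma-voom, with library totals alone or with the test against a log2 fold change of 0.2. Leaving out 1 library gave 1 to 13 genes, 0 to 5 higher and 1 to 8 lower. The highest count came without SNI+LDN193189 replicate 1 and 9 came without sham replicate 3, and the count was 1 without sham replicate 2 or SNI+LDN193189 replicate 2 or 3. Deviations from the group mean had correlations of -0.136, -0.011 and -0.165 in same-numbered libraries and -0.0566 to 0.183 in other pairs. With 3 libraries per group these values cannot decide whether the numbers pair libraries. The replicate block gave 6 genes (3 higher and 3 lower). No setting moved the median log2 fold change of all genes by more than 0.1.

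Of 143 of the genes named, 16 changed sign in at least 1 fit. With the nerve root covariate the value was 0.026 for Dhh, 0.14 for Pmp2, 0.30 for Gsdmd, -0.049 for Gsdme, 0.034 for Mmp15, -0.010 for Rorb and 0.048 for Slc16a1. Gsdmd was 0.11 with limma-voom, 0.030 on log2 FPKM and 0.043 with the replicate block, and Hk2 0.0041 on log2 FPKM and 0.022 with the block. Id3 was -0.0066 on log2 FPKM, -0.017 with library totals and -0.0036 with the stricter filter. Nlrp3 was -0.00045 with DESeq2, -0.040 with limma-voom, -0.018 on log2 FPKM, -0.00034 with RLE scaling, -0.019 with library totals, -0.0055 with the stricter filter and -0.0078 with the block. Leaving out 1 library, Ep300 ranged from -0.033 to 0.013, Gsdmd from -0.27 to 0.16, Gsdme from -0.0091 to 0.088, Hk2 from -0.14 to 0.26, Hspa8 from -0.10 to 0.00086, Id3 from -0.085 to 0.12, Nlrp3 from -0.13 to 0.18, Opalin from -0.023 to 0.16, Rora from -0.065 to 0.044, Rorb from -0.015 to 0.088, Slc16a1 from -0.12 to 0.016, Smad6 from -0.058 to 0.40 and Timp2 from -0.081 to 0.032. The cause of these shifts was not tested. The median SE of a log2 fold change was 0.115. Differences within the SE of a gene were not detectable at this number of libraries, and much larger ones could also miss the threshold. Cldn5, for example, had a log2 fold change of -0.66 (SE 0.102) and did not pass (adjusted p = 0.0622 with edgeR).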
